A study of Mus musculus with 8 samples.

Results

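The genes described here encode mucosal defence proteins and the receptors that handle IgA. They were chosen by name, as 10 genes of 13265 in the table of the series: the IgA and IgM receptors Pigr and Fcamr, the BPI fold proteins Bpifa1 and Bpifb1, the lectin Reg3g, the WAP domain proteins Slpi, Wfdc2 and Wfdc17, the scavenger receptor cysteine-rich protein Dmbt1, and the iron-binding protein Ltf. All 10 had at least 30 molecules over the libraries and entered the test. Their RNA was measured in epithelial cells sorted from the lungs of female C57BL/6 mice (genotype C57BL6 in the labels), 10 to 14 weeks old, that breathed aerosolized PBS, either alone (5 libraries) or with Escherichia coli LPS at 0.5 mg/ml (3 libraries), over 10 weeks, with 3 sessions of 30 min in each week. Lungs were taken 48 h after the last exposure. Each sample held 10000 cells that carried EpCAM and lacked CD31 and CD45, the sort of the study for epithelium, and was read by bulk MARS-seq, which counts the 3′ ends of transcripts by unique molecular identifiers (UMIs). The labels call the libraries biological replicates but do not say whether a sample came from 1 mouse. A figure legend of the study gives 5 control and 3 inflamed mice for this RNA-seq, while its methods speak of pooled samples. The p-values therefore measure the spread between these samples. Libraries carry the numbers of the table, s1, s2, s6, s11 and s16 for PBS and s4, s14 and s18 for LPS.

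Mucous surfaces are guarded by secreted antibody and by secreted proteins. The polymeric immunoglobulin receptor takes up dimeric IgA and pentameric IgM at the base of an epithelial cell, carries them across, and is then cut at the luminal side, where its outer part stays on the antibody as secretory component. Club, goblet and serous gland cells of the airway secrete many of the other proteins, which bind bacterial lipids or cell walls, withhold iron, or inhibit the proteases that neutrophils release.

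Library totals ran from 2232727 to 2890560 UMIs for PBS and from 2739340 to 4445431 UMIs for LPS (two-sided exact permutation test, 56 splits, p = 0.0536, where the smallest possible p is 0.0179). Levels are given as CPM, the counts of a gene scaled to a common library size, after TMM normalization, and a count of 3 UMIs, taken as the floor per library, equalled 0.667 to 1.45 CPM. Intervals and floors cover counting error only. Epcam stood at 122 ± 18.5 CPM (SD, n = 5) with PBS and 117 ± 16.8 CPM (n = 3) with LPS. Transcripts of the markers that the sort excluded were still present, Pecam1 (CD31) at 119 ± 40.0 and 124 ± 44.5 CPM and Ptprc (CD45) at 17.6 ± 10.8 and 29.5 ± 7.17 CPM, and neither was called (edgeR adjusted p = 0.939 and 0.340). PBS library s16 stood apart in club and goblet cell markers. The 18 club cell markers made up 6.59% of its counts, where they made up 2.43 to 3.18% in the rest of the PBS group and 3.03 to 5.22% with LPS. The 9 tested goblet cell markers made up 0.0738% there, with 0.0212 to 0.0354% in the rest of the PBS group and 0.0348 to 0.0722% with LPS. Not all airway lists were high in s16. The 21 tested ciliated cell markers made up 0.682% there, within the 0.308 to 0.899% of the rest of the PBS group. The 6 tested basal cell markers were at their lowest there, at 0.0326%. In bulk RNA, fewer cells of a type and less RNA per cell cannot be told apart.

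Pigr and Fcamr are neighbours on mouse chromosome 1. In GRCm38.p6 (mm10) the annotation of RefSeq places Fcamr at chr1:130784706-130825903 and Pigr at chr1:130826684-130852249, both on the plus strand with 780 bases between them, and the IgM receptor gene Fcmr begins 13527 bases after Pigr. Bpifa1 (chr2:154142880-154149217) and Bpifb1 (chr2:154190818-154220343) lie 41600 bases apart. Slpi (chr2:164354070-164356507, minus strand) and Wfdc2 (chr2:164562715-164568510) share the same chromosome, 206207 bases apart. The others are at chr6:78466269-78468874 (Reg3g, minus strand), chr11:83704056-83706269 (Wfdc17), chr7:131032057-131121628 (Dmbt1) and chr9:111019292-111042766 (Ltf).

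Promoters of 4 of these genes are shown from RefSeq (GRCm38.p6), 5′ to 3′ on the strand of the gene, from 250 bases before to 50 bases after the annotated start. Pigr and Fcamr are shown because they were called, and Reg3g and Ltf for contrast, as secreted proteins that were not. Capitals mark motif matches. The windows are chr1:130826434-130826733 (Pigr), chr1:130800652-130800951 (Fcamr, within the annotated span of the gene), chr6:78468825-78469124 (Reg3g) and chr9:111019042-111019341 (Ltf).
Pigr: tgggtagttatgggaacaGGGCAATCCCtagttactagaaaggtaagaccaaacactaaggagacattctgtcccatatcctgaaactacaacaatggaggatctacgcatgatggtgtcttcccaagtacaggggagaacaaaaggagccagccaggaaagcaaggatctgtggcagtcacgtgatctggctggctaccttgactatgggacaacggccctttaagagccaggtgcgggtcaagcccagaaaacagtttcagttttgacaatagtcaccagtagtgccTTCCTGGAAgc
Fcamr: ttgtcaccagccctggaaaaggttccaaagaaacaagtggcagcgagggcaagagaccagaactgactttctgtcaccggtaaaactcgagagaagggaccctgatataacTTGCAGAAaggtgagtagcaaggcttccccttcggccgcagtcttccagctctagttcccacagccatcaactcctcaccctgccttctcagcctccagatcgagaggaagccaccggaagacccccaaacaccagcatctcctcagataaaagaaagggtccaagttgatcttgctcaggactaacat
Reg3g: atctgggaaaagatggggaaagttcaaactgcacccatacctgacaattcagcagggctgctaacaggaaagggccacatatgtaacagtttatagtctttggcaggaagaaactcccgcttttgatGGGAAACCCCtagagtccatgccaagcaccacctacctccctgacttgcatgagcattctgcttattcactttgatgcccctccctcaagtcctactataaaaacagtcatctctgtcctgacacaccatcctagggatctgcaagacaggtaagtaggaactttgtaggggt
Ltf: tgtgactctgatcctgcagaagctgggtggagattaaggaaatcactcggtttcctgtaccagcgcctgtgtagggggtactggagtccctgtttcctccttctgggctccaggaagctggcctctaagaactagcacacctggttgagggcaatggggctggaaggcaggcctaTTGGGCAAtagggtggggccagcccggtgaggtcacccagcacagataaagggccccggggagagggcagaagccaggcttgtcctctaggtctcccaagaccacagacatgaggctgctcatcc
The motifs were searched on both strands, as NF-kB (GGGA, 4 bases of any kind, then CC), C/EBP (TTGC, 2 of any kind, AA), GAS (TTC, 3 of any kind, GAA), AP-1 (TGA, 1 of any kind, TCA) and ISRE (GAAA, 2 of any kind, GAAA). The Pigr window held an NF-kB match at -232 and a GAS match at 40, counted with the start as position 1 and no position 0. The Fcamr window held a C/EBP match at -139 and no NF-kB match. Reg3g had an NF-kB match at -123 and Ltf a C/EBP match at -75. Over the 9 members with a promoter in the RefSeq table (Dmbt1 had none), NF-kB letters were found in 3 (Pigr, Bpifb1 and Reg3g), C/EBP letters in 3 (Fcamr, Slpi and Ltf), GAS letters in 2 (Pigr and Bpifb1), AP-1 letters in 1 (Bpifa1) and ISRE letters in 0. Of all 32851 mouse promoters, 20.7% held the NF-kB letters, 10.8% C/EBP, 8.3% GAS, 7.81% AP-1 and 3.44% ISRE. Matches of different motifs did not overlap in the members. A match describes letters, not binding, and no motif was shared by the pair of genes that were called.

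The comparison of LPS with PBS asked how repeated exposure to endotoxin changed these transcripts in sorted lung epithelium. Of the 10 genes, 2 were called higher with LPS, Pigr and Fcamr, and 0 lower, where a call means an edgeR adjusted p under 0.05 over all 12661 tested genes together with the smallest fold change that the methods of the study ask for. Over all tested genes 1.46% were called higher and 0.569% lower, 2.03% in all. DESeq2 and limma-voom called the same pair higher and 0 lower, beside 2.91% and 1.38% of all genes called higher and 1.51% and 0.521% called lower. At an unadjusted p under 0.05, 3 of the 10 were higher (Wfdc17 in addition) and 0 lower, beside 10.4% and 7.64% of all genes. The fold change was positive for 8 of the 10, beside 47.3% of all genes, and its median was 0.32 on the log2 scale, beside -0.02 over all genes. LPS and PBS libraries did not overlap for 2 of the 10, beside 8.52% of all genes with every LPS library above every PBS library.

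**Figure D1:**
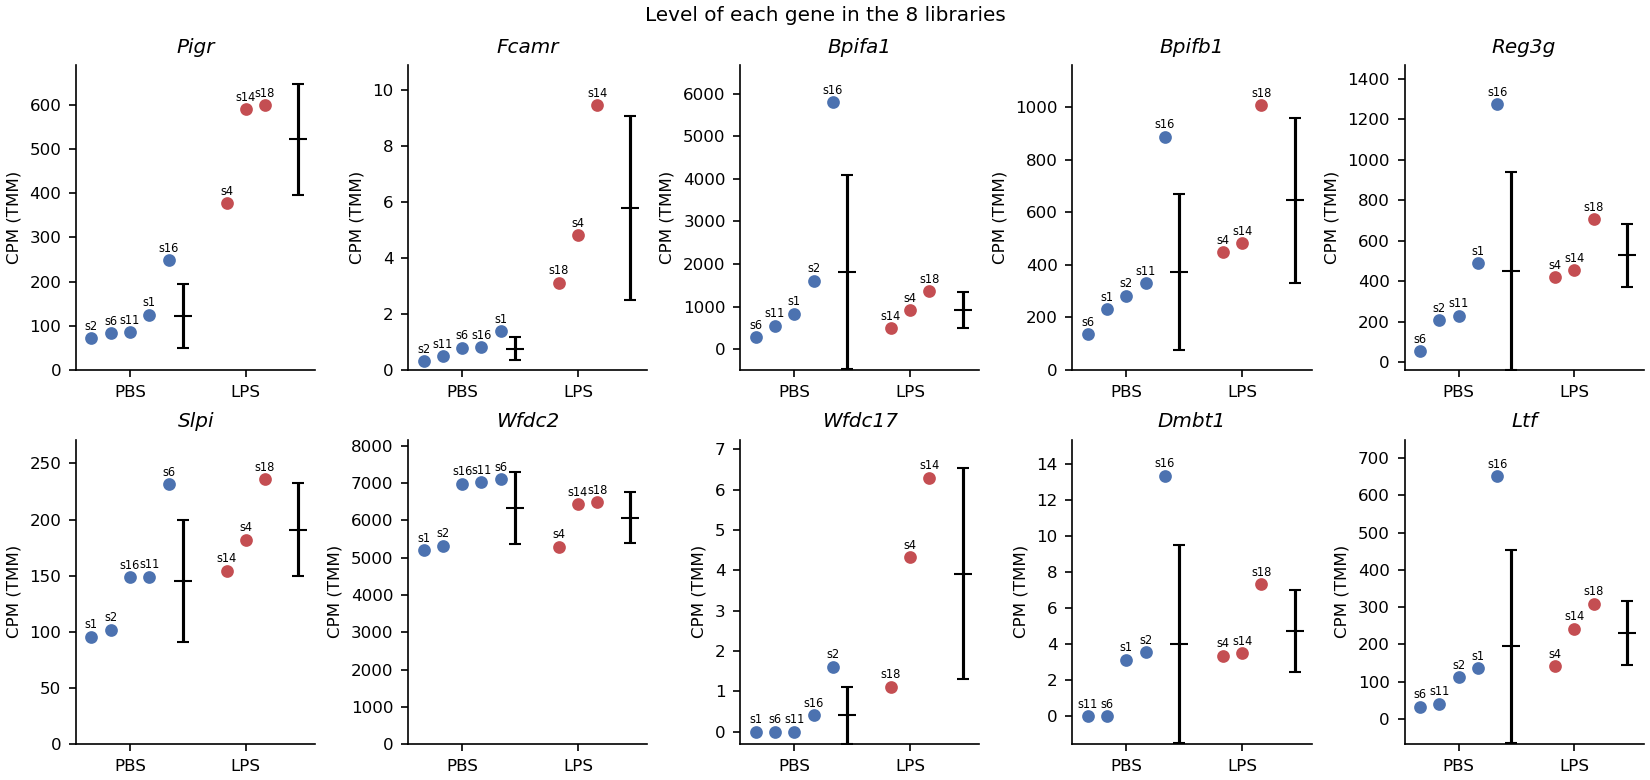
Level of each of the 10 genes in the 8 libraries, in TMM-scaled CPM on a linear axis of its own. Blue points are PBS and red points LPS libraries, sorted by level within a group, and the black mark and bar beside each group give its mean and SD. The LPS points lie above all PBS points for Pigr (378 to 600.0 against 72.6 to 248 CPM) and Fcamr (3.11 to 9.45 against 0.323 to 1.39 CPM), and s16 is the highest PBS point for 6 genes.

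Pigr, which carries polymeric IgA and IgM across epithelium, was read at 125, 72.6, 82.5, 85.4 and 248 CPM in PBS libraries s1, s2, s6, s11 and s16, and at 378, 590.4 and 600.0 CPM in LPS libraries s4, s14 and s18. The groups did not overlap, and the highest PBS value was that of s16. The mean rose from 123 ± 73.0 CPM (SD, n = 5) to 523 ± 126 CPM (n = 3), 4.26-fold, with a log2 fold change of 2.09 (SE 0.35, edgeR adjusted p = 0.0143). Counts were ample, 1582 UMIs over the PBS and 5957 over the LPS libraries. Without s16 the log2 fold change was 2.51 (edgeR adjusted p = 0.001). The call ended without LPS s14 (log2 fold change 1.99, edgeR adjusted p = 0.0629) and without LPS s18 (1.97, 0.0723), with the direction kept.

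Fcamr, an Fc receptor for IgA and IgM known from B cells, macrophages and follicular dendritic cells, was sparse. It had 4, 1, 2, 1 and 2 UMIs in PBS libraries s1, s2, s6, s11 and s16 and 20, 27 and 14 UMIs in LPS libraries s4, s14 and s18. In CPM these were 1.39, 0.323, 0.797, 0.482 and 0.809 against 4.81, 9.45 and 3.11. Every LPS library was above every PBS library, most of which lay below the floor of 3 UMIs. The mean rose from 0.761 ± 0.410 to 5.79 ± 3.28 CPM, with a log2 fold change of 2.80 (SE 0.51, edgeR adjusted p = 0.0199). Pooled over libraries, the ratio of 61 to 10 UMIs scaled by depth was 6.90, with a 95% counting interval of 3.51 to 15.1. The call ended without PBS s11 (edgeR adjusted p = 0.0653), LPS s4 (0.0681) or LPS s14 (0.0769), and without PBS s6, s11 and s16 together (0.105), and the direction held in each.

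**Figure D2:**
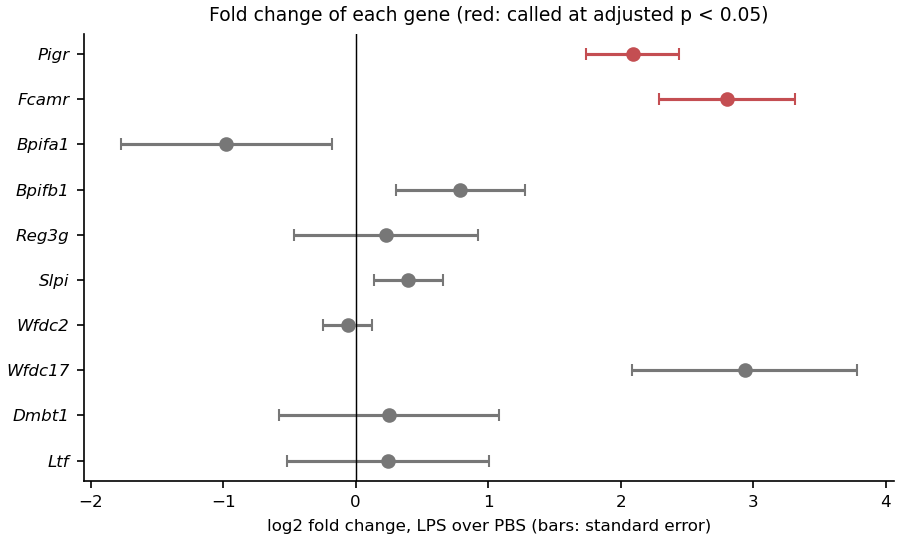
Fold change of LPS over PBS for each of the 10 genes, as the log2 fold change on the x axis with its standard error as the bar. Red marks the genes called at an adjusted p under 0.05, Pigr at 2.09 and Fcamr at 2.80, and Wfdc17 at 2.93 has a wider bar and was not called.

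Marker shares of several cell types are given beside Pigr and Fcamr, and none of 14 lists passed the test after adjustment. With 56 splits the smallest possible p is 0.0179, so a fully separated list could not pass unless several others were separated too. The adjusted test therefore cannot show that the cell mixture was alike. The 21 tested ciliated cell markers made up 0.308 to 0.899% of counts with PBS and 1.08 to 1.36% with LPS (two-sided exact permutation test, p = 0.0179, adjusted p = 0.0835 over 14 lists). Of these markers 0 were called by edgeR or limma-voom and 3 were called higher by DESeq2. All 21 had a positive fold change, with a median log2 fold change of 0.84, and 17 were higher at an unadjusted edgeR p under 0.05. The 16 alveolar type II markers made up 14.2 to 17.7% with PBS and 12.0 to 12.7% with LPS (exact permutation p = 0.0357, adjusted p = 0.125). Macrophage markers other than Lyz2, a gene that alveolar type II cells also express, made up 0.0693 to 0.110% with PBS and 0.172 to 0.311% with LPS over 28 genes (exact permutation p = 0.0179, a list added after seeing the data and outside the adjustment). With Lyz2, which holds 94.5% of the sum of the full list, the shares overlapped, at 2.58 to 3.82% and 2.10 to 2.79% (exact permutation p = 0.161, adjusted p = 0.451). Of the 29 tested markers 15 were called higher and 0 lower, among them the complement genes C1qb (log2 fold change 2.51, edgeR adjusted p = 0.00132) and C1qa (2.18, 0.00252), the protease gene Ctss (2.32, 0.0018) and the lipid receptor gene Trem2 (2.86, 0.0018). The follicular dendritic cell list had 3 tested genes, rested on Clu for 83% of its sum, and stood at 0.0516 to 0.0970% with PBS and 0.0998 to 0.149% with LPS (exact permutation p = 0.0179, adjusted p = 0.0835). Cr2 and Fdcsp, which define these cells, are not among the 13265 genes of the series and could not be tested. Of B and plasma cell markers, 9 were tested and 0 called (at an unadjusted p under 0.05, 2 higher and 1 lower, and 0 by DESeq2 and by limma-voom), at 0.0855 to 0.125% with PBS and 0.102 to 0.104% with LPS. Sdc1, named after its values were seen, held 63.6% of their sum, so these shares mostly follow that gene. As mean log2 CPM of the 9 markers, LPS minus PBS was 0.29 (exact permutation p = 0.232, adjusted p = 0.531). Neither form can show that the share of B and plasma cells was alike. The part of these cells in the levels of Pigr and Fcamr was not tested.

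**Figure D3:**
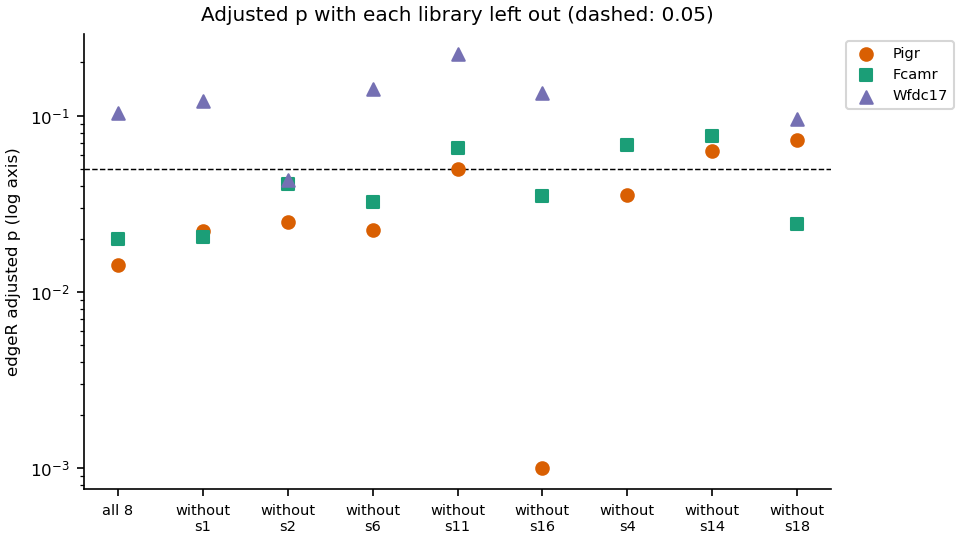
Adjusted p of the edgeR test (log axis) for Pigr, Fcamr and Wfdc17 with all 8 libraries and with each library left out, and the dashed line at 0.05. Pigr runs from 0.001 without s16 to 0.0723 without s18, and Fcamr from 0.0205 to 0.0769. Wfdc17 has no point without s4 or s14, since it then fell below 30 UMIs.

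Bpifa1 and Bpifb1 encode secreted airway proteins of the lipid-binding BPI fold, known from club, goblet and gland cells. Bpifa1 stood at 829.0, 1610, 286, 550.4 and 5802 CPM in PBS libraries s1, s2, s6, s11 and s16 and at 918, 496 and 1355 CPM in LPS libraries s4, s14 and s18. The PBS libraries alone spanned 20.3-fold and enclosed all LPS values. The means were 1816 ± 2283 and 923 ± 429 CPM, with a log2 fold change of -0.98 (SE 0.80, edgeR adjusted p = 0.564) that became 0.17 (0.901) without s16. Bpifb1 stood at 232, 283, 137, 329 and 888 CPM with PBS and at 447, 482 and 1009 CPM with LPS. All LPS values lay above 4 of the 5 PBS values, and s16 lay between s14 and s18. The log2 fold change of Bpifb1 was 0.79 (SE 0.49, edgeR adjusted p = 0.423), and 1.40 (0.0523) without s16.

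Reg3g, a secreted C-type lectin that binds the peptidoglycan of Gram-positive bacteria, stood at 488, 206, 53.0, 229 and 1276 CPM in PBS libraries s1, s2, s6, s11 and s16. The LPS values of Reg3g in s4, s14 and s18 were 421, 455 and 705 CPM, all within the range of PBS, which spanned 24.1-fold. The means of Reg3g were 451 ± 487 and 527 ± 155 CPM, with a log2 fold change of 0.23 (SE 0.69, edgeR adjusted p = 0.898). It was 1.11 (edgeR adjusted p = 0.273) without s16. Of the 6 other genes listed for the Reg family, 0 were in the table.

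WAP domain proteins are small secreted proteins, several of which inhibit serine proteases. Slpi, the secretory leukocyte protease inhibitor that blocks neutrophil elastase, stood at 95.7, 102, 232, 149 and 149 CPM with PBS and at 182, 155 and 236 CPM with LPS. The groups overlapped at s6, and the log2 fold change was 0.40 (SE 0.26, edgeR adjusted p = 0.453). With only s1 and s2 kept as PBS libraries, Slpi was called at 0.96 (edgeR adjusted p = 0.0342).

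Wfdc2, a WAP protein of airway epithelium, was the steadiest of the 10 genes by its coefficient of variation, 15.3% over the PBS and 11.2% over the LPS libraries. It stood at 5205, 5321, 7099, 7018 and 6978 CPM with PBS and at 5291, 6438 and 6489 CPM with LPS. The means were 6324 ± 970.4 and 6073 ± 677 CPM, and the log2 fold change of -0.06 (SE 0.19, edgeR adjusted p = 0.902) ran from -0.12 to 0.03 as single libraries were left out. No other of the 10 genes had so small a standard error.

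Wfdc17, a WAP gene known from activated macrophages, had 0, 5, 0, 0 and 1 UMIs in PBS libraries s1, s2, s6, s11 and s16 and 18, 18 and 5 UMIs in LPS libraries s4, s14 and s18. In CPM the PBS values were 0, 1.61, 0, 0 and 0.404 and the LPS values 4.32, 6.30 and 1.11, where a count of 0 allows up to 1.04 CPM in s1, 1.20 in s6 and 1.45 in s11. PBS s2 lay above LPS s18, so the groups overlapped. The log2 fold change was 2.93 (SE 0.85, edgeR adjusted p = 0.104), and the pooled ratio of 41 to 6 UMIs scaled by depth was 7.73 (95% counting interval 3.26 to 22.3). Without s2 the adjusted p of edgeR was 0.0431, with 1 UMI left over the PBS libraries. The macrophage markers without Lyz2 given above lay higher in all 3 LPS libraries than in any PBS library, and their part in Wfdc17 was not tested.

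Dmbt1, which binds bacteria and surfactant protein D through its scavenger receptor cysteine-rich domains, had 9, 11, 0, 0 and 33 UMIs in PBS libraries s1, s2, s6, s11 and s16 and 14, 10 and 33 UMIs in LPS libraries s4, s14 and s18. These equalled 3.13, 3.55, 0, 0 and 13.3 CPM against 3.36, 3.50 and 7.34 CPM, with the same limits for the counts of 0 in s6 and s11. The LPS values lay within the PBS range, and the pooled ratio was 1.22 (95% counting interval 0.822 to 1.80), with a log2 fold change of 0.25 (SE 0.83, edgeR adjusted p = 0.907). Without s16 it was 1.37 (edgeR adjusted p = 0.351).

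Ltf, lactoferrin, binds iron in mucosal secretions and in neutrophil granules. It stood at 136, 113, 33.1, 41.5 and 652 CPM in PBS libraries s1, s2, s6, s11 and s16 and at 141, 243 and 310 CPM in LPS libraries s4, s14 and s18. LPS values exceeded those of PBS except for s16, which was the highest of all 8. The log2 fold change of Ltf was 0.24 (SE 0.76, edgeR adjusted p = 0.901), and 1.5 (0.108) without s16. The 10 tested neutrophil markers other than Ltf made up 0.214 to 0.379% of counts with PBS and 0.425 to 0.484% with LPS (exact permutation p = 0.0179, adjusted p = 0.0835), but Lcn2, which epithelium also makes, held 81.6% of their sum. Of the 10 markers 6 had a positive fold change, and their median log2 fold change was 0.08. The neutrophil genes Mpo, Elane, Camp, Ngp and Ly6g are not among the 13265 genes of the series and could not be tested. Of the 10 markers 0 were called (1 higher at an unadjusted p under 0.05, 0 by DESeq2 and by limma-voom).

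Library s16 was the highest PBS library for 6 genes, and over the median of the other PBS libraries it stood 8.52-fold higher for Dmbt1, 8.45-fold for Ltf, 8.41-fold for Bpifa1, 5.86-fold for Reg3g, 3.45-fold for Bpifb1 and 2.96-fold for Pigr. For Slpi, Wfdc2 and Fcamr the same ratio was 1.19, 1.13 and 1.26. PBS s6 held the lowest PBS value of Bpifa1, Bpifb1, Reg3g and Ltf, and shared the lowest, at 0, with s11 for Dmbt1 and with s1 and s11 for Wfdc17. Among LPS libraries s18 was the highest for 8 genes, all but Fcamr and Wfdc17. The club cell secretory gene Scgb1a1, a marker on the club list that was taken up after its values were seen, was also highest in s16, at 5663, 4317, 6425, 10154 and 40159 CPM in s1, s2, s6, s11 and s16 and at 6764, 12378 and 19360 CPM in s4, s14 and s18. Its order over the other PBS libraries differed, with s2 lowest. Cbr2, with 35.5% of its sum the most abundant gene of that list, differed less, at 16384 CPM in s16 and 12368 to 15833 CPM in the rest of the PBS group. Alveolar type I markers were at their lowest in s16, at 0.339% of counts, with 0.471 to 0.510% in the rest of the PBS group. The share of all counts that the 10 genes took was 0.759 to 0.827% in 4 PBS libraries, 1.40% in s16 and 0.826 to 1.08% with LPS (two-sided exact permutation p = 0.893). Wfdc2 alone took 0.556 to 0.680% of counts over the 8 libraries, and Bpifa1 took 0.507% in s16. The summed share therefore says little about the other genes. The part of the club and goblet cell shares in these levels was not tested.

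**Figure D4:**
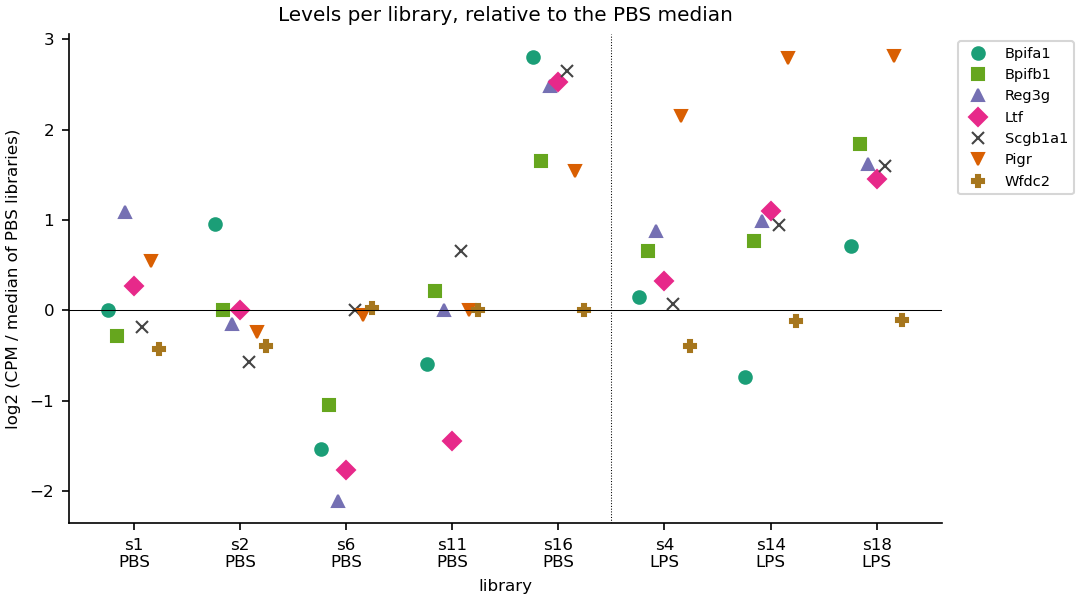
Level of 6 of the 10 genes and of the club cell gene Scgb1a1 in each library, as the log2 ratio of its CPM to the median of the PBS libraries. Bpifa1, Bpifb1, Reg3g and Ltf stand high in s16 (5802, 888, 1276 and 652 CPM) together with Scgb1a1 (40159 CPM), Pigr stands highest in the LPS libraries (378 to 600.0 CPM), and Wfdc2 stays close to 0 throughout.

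The 8 libraries differed in depth and in marker shares, which all genes of a library have in common, and the part of these in correlations was not tested. As a description, Pearson's r of log2 CPM over the 8 libraries was 0.965 between Dmbt1 and Ltf, 0.908 between Reg3g and Ltf, 0.86 between Bpifb1 and Reg3g and 0.82 between Bpifa1 and Dmbt1. Pigr and Fcamr stood at 0.873 with each other, and Slpi and Wfdc2, the other WAP genes of the epithelium, at 0.587. Bpifa1 and Fcamr were at -0.214. Among tested genes with a mean of at least 10 CPM, the 3 most like Pigr were Dis3l2 (r = 0.987), an exoribonuclease gene, Cfb (0.982), the gene of complement factor B, and Cxcl17 (0.966), a mucosal chemokine gene. Cfb lay at 16.9 to 99.5 CPM with PBS, highest in s16, and at 190 to 289 CPM with LPS. Dis3l2 was also highest in s16 among PBS libraries but moved little, from 11.9 to 13.8 CPM with PBS to 14.7 to 15.1 CPM with LPS. The genes most like Fcamr were Cbx6, Sh3glb2 and Cog8 (0.977, 0.977 and 0.973), and those most like Wfdc17 were Rtf2, Oas2 and Gdpd1 (0.953, 0.939 and 0.923).

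Secretory and goblet cell genes appeared among those most like the other secreted proteins. For Ltf and Dmbt1 the nearest gene was Agr2, a disulfide isomerase of mucin-making cells (r = 0.971 and 0.955), which stood at 33.6 CPM in s16 and at 3.38 to 9.35 CPM in the rest of the PBS group. Ltf was next followed by E2f5 and Mgat3 (0.960 and 0.956), and Dmbt1 by Plekha6 and Acsl1 (0.947 and 0.946). Near Bpifb1 stood Cdpf1, Chad and the trefoil peptide gene Tff2 (0.973, 0.968 and 0.960). Tff2 reached 406 CPM in s16 and 396 CPM in s18, against 21.9 CPM in s6. Reg3g was closest to Tango2, Oit1 and Gabrp (0.989, 0.986 and 0.985), and Bpifa1 to the alcohol dehydrogenase gene Adh7, Stat6 and Ufd1 (0.949, 0.946 and 0.934). Genes like Slpi included Spdef, a transcription factor of goblet cells, and the chitinase-like gene Chil1 (0.939 and 0.933), and Wfdc2 was closest to Mrpl46, Glmp and Ndufa7 (0.971, 0.965 and 0.965).

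Genes that supply IgA or bind antibody were examined beside Pigr and Fcamr. Of 23 genes listed, 14 are among the genes of the series and 12 were tested. The antibody chain genes Igha, Ighm and Igkc are absent, so the heavy chain of IgA was not read. Of the 12 tested genes, 2 were called higher and 0 lower, and the median log2 fold change was 0.66, beside -0.02 over all genes. At an unadjusted p under 0.05, 5 were higher and 1 was lower, and DESeq2 called 2 higher and 1 lower. The lower gene was Tfrc, the transferrin receptor that also binds IgA in humans, chosen here after its values were seen. It stood at 25.2 to 79.2 CPM with PBS and 7.93 to 20.5 CPM with LPS without overlap (log2 fold change -1.46, SE 0.41, edgeR adjusted p = 0.0988, DESeq2 adjusted p = 0.0135). Both called genes encode Fcγ receptors, known from myeloid cells and, for Fcgr2b, also from B cells. Fcgr3 rose, with 13.0 to 26.8 CPM in the PBS and 42.7 to 77.6 CPM in the LPS libraries (log2 fold change 1.71, SE 0.25, edgeR adjusted p = 0.00709, and 0.0549 without s4), and it is itself on the macrophage marker list. Fcgr2b, an inhibitory receptor, rose from 4.69 ± 1.68 to 15.0 ± 5.30 CPM (log2 fold change 1.66, SE 0.31, edgeR adjusted p = 0.0216), and its call ended without s11 (0.0679), s4 (0.123) or s18 (0.0792). The macrophage marker shares without Lyz2 given above, from the list added after seeing the data, separate the same libraries. With Lyz2 the shares overlapped. The part of macrophages in these receptors was not tested. Jchain, which joins IgA monomers and was looked at after its values were seen, had 6, 0, 0, 4 and 31 UMIs in s1, s2, s6, s11 and s16 and 80, 27 and 12 UMIs in s4, s14 and s18, and its log2 fold change of 1.69 (SE 0.91) was not called (edgeR adjusted p = 0.354).

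Genes whose proteins move the polymeric immunoglobulin receptor through the cell gave no edgeR call. Of 24 tested genes of vesicle transport, 0 were called in either direction by edgeR or limma-voom, 1 was called lower by DESeq2, and at an unadjusted p under 0.05 1 was higher and 3 were lower, with a median log2 fold change of -0.16. The smallest p belonged to Sytl2 and Sytl1, which encode Rab27 effectors. Sytl2 stood at 28.0 ± 4.5 CPM with PBS and 16.9 ± 0.850 CPM with LPS (log2 fold change -0.72, SE 0.18, edgeR adjusted p = 0.0658), and Sytl1 at 23.7 ± 7.27 and 38.6 ± 2.83 CPM (0.69, SE 0.23, 0.141).

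Genes around Pigr and Fcamr on chromosome 1 were looked at in turn. Of 9 tested neighbours 0 were called by edgeR, DESeq2 or limma-voom, 3 were higher at an unadjusted p under 0.05, and the median log2 fold change was 0.07. These 3 were the kinase gene Dyrk3 (0.59, edgeR adjusted p = 0.0925), the IκB kinase family gene Ikbke (0.89, 0.119) and the complement inhibitor gene Cd55 (0.68, 0.234). For each of them the LPS libraries lay above all PBS libraries. The IgM receptor gene Fcmr, next to Pigr, stood at 10.9 ± 4.53 CPM with PBS and 9.12 ± 2.93 CPM with LPS (log2 fold change -0.29, edgeR adjusted p = 0.723). Mapkapk2, Yod1, Pfkfb2, Eif2d and Rassf5 had log2 fold changes from -0.15 (Mapkapk2) to 0.27 (Yod1), with edgeR adjusted p from 0.670 to 0.978.

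**Figure D5:**
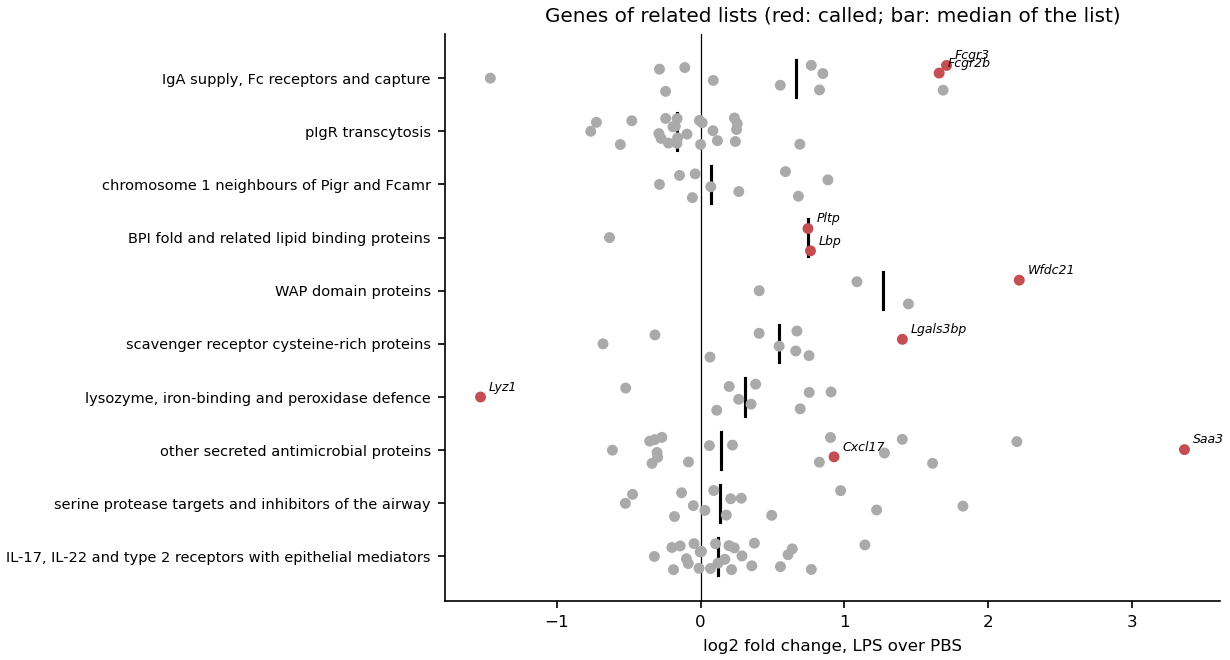
Log2 fold change of LPS over PBS for the tested genes of 10 related lists, 1 point a gene, with called genes in red and named, and a bar at the median of each list. Called genes run from Lyz1 at -1.53 to Saa3 at 3.36, and 4 lists (transcytosis, chromosome 1 neighbours, serine proteases and inhibitors, and IL-17 and IL-22 mediators) hold no called gene.

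Relatives of the secreted proteins were called in several families. Of 3 further BPI fold genes tested, 2 were called higher and 0 lower by edgeR and DESeq2, and at an unadjusted p under 0.05 2 were higher and 1 was lower. The third, Bpifb5, named after its values were seen, stood at 61.7 ± 12.5 CPM with PBS and 39.6 ± 4.35 CPM with LPS, every LPS library below every PBS library (log2 fold change -0.63, SE 0.18, edgeR adjusted p = 0.102). Lbp, which hands LPS to CD14, stood at 243 to 334 CPM with PBS and 448 to 554 CPM with LPS (log2 fold change 0.76, SE 0.14, edgeR adjusted p = 0.0213), and its call ended without s11 (0.0638), s4 (0.0813), s14 (0.052) or s18 (0.126). Pltp, the phospholipid transfer protein, stood at 162 ± 33.0 and 273 ± 27.4 CPM (log2 fold change 0.75, SE 0.17, edgeR adjusted p = 0.0497), a call that ended without s2 (0.0589), s11 (0.132), s16 (0.0699), s4 (0.189), s14 (0.156) or s18 (0.129), and by limma-voom 1 of the 3 was called. For Lbp and Pltp, unlike the members Bpifa1 and Bpifb1, the groups did not overlap.

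Of 4 further WAP genes tested, 1 was called higher, and all 4 had a positive fold change, with a median log2 fold change of 1.27. Wfdc21 stood at 1.39, 4.52, 5.58, 8.68 and 6.47 CPM in s1, s2, s6, s11 and s16 and at 25.9, 19.2 and 26.9 CPM in s4, s14 and s18 (log2 fold change 2.22, SE 0.34, edgeR adjusted p = 0.00956). Its call ended without s4 (0.0596) or s18 (0.0613). Wfdc21 lies 40670 bases from Wfdc17 on chromosome 11. DESeq2 called 3 of these 4 genes higher.

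Among 9 other scavenger receptor cysteine-rich genes, 1 was called higher and the median log2 fold change was 0.55. Lgals3bp, a secreted glycoprotein that binds galectins, stood at 207, 177, 131, 103 and 124 CPM in s1, s2, s6, s11 and s16 and at 393, 424 and 365 CPM in s4, s14 and s18. All LPS libraries were above all PBS libraries, and the log2 fold change was 1.40 (SE 0.20, edgeR adjusted p = 0.00683, from 0.00337 to 0.0365 with each library left out). DESeq2 called 2 of the 9 higher.

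Of 10 genes of lysozyme, iron-binding and peroxidase defence, 0 were called higher and 1 lower, with a median log2 fold change of 0.31 (3 higher and 1 lower at an unadjusted p under 0.05, and 1 higher and 1 lower by DESeq2). Lyz1, a lysozyme gene, fell from 2260, 1916, 4566, 3070 and 2268 CPM in s1, s2, s6, s11 and s16 to 874, 724 and 1327 CPM in s4, s14 and s18 (log2 fold change -1.53, SE 0.31, edgeR adjusted p = 0.0303). The groups did not overlap. The call of Lyz1 ended without s11 (0.0832), s4 (0.137), s14 (0.158) or s18 (0.0646). Lyz1 and Lyz2 share much of their sequence, and only uniquely mapping reads were counted. Reads that fit both genes would be left out, and the level of Lyz1 is uncertain to that extent. The alveolar type II marker share given above was lower in all 3 LPS libraries than in any PBS library, and its part in Lyz1 was not tested.

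Among 18 other secreted antimicrobial genes, 2 were called higher and 0 lower, with a median log2 fold change of 0.14. Saa3, an acute phase protein, stood at 8.35, 3.23, 11.6, 3.38 and 15.8 CPM with PBS and at 50.2, 92.4 and 119 CPM with LPS. Its log2 fold change was 3.36 (SE 0.41, edgeR adjusted p = 0.00229, from 0.00223 to 0.0192 with each library left out). Cxcl17, already named as like Pigr, stood at 147 to 298 CPM with PBS, highest in s16, and at 348 to 384 CPM with LPS (log2 fold change 0.93, SE 0.21, edgeR adjusted p = 0.043). The adjusted p of Cxcl17 was 0.00273 without s16 and 0.0598 to 0.173 without any other single library.

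Protease and cytokine genes of the same setting were not called. Of 14 serine proteases and inhibitors, 0 were called by edgeR or limma-voom, 1 was called higher by DESeq2, and at an unadjusted p under 0.05 2 were higher and 1 was lower, with a median log2 fold change of 0.14. The smallest p values were those of the kallikrein genes Klk11 (11.4 ± 5.84 against 27.0 ± 3.67 CPM, log2 fold change 1.22, edgeR adjusted p = 0.110) and Klk10 (1.58 ± 1.95 against 5.61 ± 2.84 CPM, 1.82, 0.198). Of 25 receptors and mediators of IL-17, IL-22 and type 2 cytokines, 0 were called by edgeR or limma-voom and 1 was called higher by DESeq2, with 6 higher and 1 lower at an unadjusted p under 0.05 and a median log2 fold change of 0.12. Zc3h12a, an RNase gene that restrains cytokine mRNA, stood at 14.9 ± 6.01 and 33.2 ± 10.7 CPM (log2 fold change 1.14, edgeR adjusted p = 0.075).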

How the data were processed

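Lung epithelial cells of 5 PBS and 3 LPS samples were profiled by bulk MARS-seq. The authors ran the UTAP pipeline, which counts only uniquely mapping reads near the 3′ ends of RefSeq transcripts (mm10), and deposited raw counts of UMIs per gene and library, which were used for every test. What aligner this ran was not given in the sources used here. Another 16 columns of values per library were not used, nor were the mean, fold change and p-value columns, which hold the authors' DESeq2 comparison of PBS and LPS. Column names give the group and a number found in no label, so that the group of each library is known and its replicate number is not.

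Genes with at least 30 UMIs over the 8 libraries (12661 of 13265, 604 below) were normalized by TMM. LPS was compared with PBS by the quasi-likelihood test of edgeR 4.0.16 in R 4.3.3, with p-values adjusted after Benjamini and Hochberg over all of them. Calls needed adjusted p below 0.05 and more than a 1.25-fold change. A standard error is the size of the log2 fold change over the root of its F. Ratios of sparse genes carry exact 95% counting intervals. Marker shares were compared by two-sided exact permutation over 56 splits. Alternatives were DESeq2 1.42.0, limma-voom (limma 3.58.1), other scaling, filters and fold limits, and each library left out. Symbols were matched to RefSeq for all 10 members and 13211 of 13265 genes. Chi-square comparison found no 2 libraries of a group that agreed within sampling noise (at least 2.82 per degree of freedom). A planned comparison of proteins was not run, since protein sequences were not used here.

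The members and lists were chosen with earlier results of these data known. Genes named are the members, in each list up to 4 called genes with the smallest p or else the first 2, the detected chromosome 1 neighbours, the 3 genes most like each member (Pearson's r of log2 CPM, prior count 2, mean of at least 10 CPM) and the sorted surface genes. Others are said to be chosen after their values were seen, and 2 genes that the rule names are not reported here.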

Additional observations from a re-analysis of the deposited data

Results flagged for a closer look

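PBS libraries were examined for a single value far from the others, by the gap to the nearest value divided by the range of the 5 (limit 0.71). Of 24 groups of values examined, 8 passed. A chance rate of about 1 in 20 would hold for independent, normally distributed values. Most of the 8 came from the same library, s16, in genes and lists that vary together. The 8 are therefore not separate events, and their number cannot be set against that rate. Library s16 was the far value for Bpifa1 (0.76), Bpifb1 (0.745), Dmbt1 (0.734) and Ltf (0.834), on the high side in each. It was also far for the marker shares of club cells (0.821) and goblet cells (0.729), on the high side, and of alveolar type I cells (0.77), on the low side. For Wfdc17 the far value was s2 (0.749), which held 5 of the 6 UMIs of the PBS libraries.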

How the results depend on the processing

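No paired analysis was possible because the columns carry numbers found in no label, so the planned fit with a replicate block was not run. Of 156 alternatives for single members 135 kept direction and side of the threshold. Of 126 for marker shares 115 kept direction. Few splits were available for these, and fewer with a library left out, so that crossing the threshold was hardly possible. The count for marker shares therefore describes direction only. DESeq2 called 369 genes higher and 191 lower, against 185 and 72, and a fold over 2 left 43 lower. With filterByExpr 1 member was called, since Fcamr and Wfdc17 were not tested. Leaving out single libraries gave 47 to 259 genes called higher, 12 to 95 lower and 0 to 3 members higher. Both settings that follow were chosen after seeing the data. Without PBS s1 and s2, which were the most alike pair, 527 genes were called higher and 381 lower, and without PBS s6, s11 and s16 47 were lower. Fold changes of members that reversed were never called. With single libraries left out the log2 fold change ran from -1.37 to 0.17 for Bpifa1, -0.0608 to 1.11 for Reg3g, -0.122 to 0.0322 for Wfdc2, -0.246 to 1.37 for Dmbt1 and -0.0361 to 1.5 for Ltf. Ltf was -0.073 without s1 and s2, and Wfdc2 0.22 without s6, s11 and s16. As mean log2 CPM in place of the share of counts, the difference of LPS minus PBS changed sign for basal cells (-0.10), macrophages (1.37), B and plasma cells (0.29), T and NK cells (-0.13), endothelial cells (-0.0129) and fibroblasts (-0.45). None passed the test in either form, where the number of splits left little room to pass. With single libraries left out, the difference in share ran from -0.0204 to 0.225 percentage points for serous cells, -0.00876 to 0.000996 for B and plasma cells and -0.00955 to 0.0355 for endothelial cells. The cause of these reversals was not tested. Fewer samples remained in each fit with libraries left out. Depth limits Fcamr, Wfdc17 and Dmbt1, whose PBS libraries held 0 to 33 UMIs.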
